A study of Mus musculus with 6 samples.

Results

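Disallowed genes are housekeeping or widely expressed genes whose transcripts are unusually scarce in pancreatic beta cells. A set of 10 of them, chosen by name, was followed here, namely Ldha, Slc16a1, Acot7, Oat, Pdgfra, Igfbp4, Cxcl12, Maf, Smad3 and Mgst1, and they were represented by 28 of the 45101 probe sets of an Affymetrix mouse expression array that names 18193 genes through probe sets with a single symbol. The 6 arrays comprised 4 of MIN6, an insulin-secreting mouse beta-cell line, and 2 of pancreatic islets. MIN6 cells had been infected with an adenovirus carrying miR-7a (AdmiR7a, 2 arrays described as duplicate infections), miR-7b (AdmiR7b, 1 array) or green fluorescent protein (AdGFP, 1 array). All infections used a multiplicity of 250 over 48 h at 4.5 g/l glucose and 2% serum, so AdGFP cells share the virus with the miR-7 cells. The islets came from C57BL/6 mice with a Lox/Cre deletion of miR-7a2 limited to beta cells (KO, 1 array) and from mice of that background with the gene intact (WT, 1 array); the Cre driver, the ages and the number of mice per array are not given in the sources used here. Each value is a log2 probe set intensity, and 4 was taken as the level below which a probe set is near background.

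As background, a beta cell couples glucose to insulin release by burning pyruvate in mitochondria. Lactate dehydrogenase A (Ldha) turns pyruvate into lactate and back, and the monocarboxylate transporter MCT1 (Slc16a1) carries both across the plasma membrane; with both genes silent, muscle-derived pyruvate or lactate does not trigger insulin release during exercise. The other members were grouped with them because they too are low in islets against other tissues, and they range from metabolic enzymes to growth factor signalling and transcription factors.

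The 2 overexpressed microRNAs carry the same seed, the stretch that pairs with target transcripts, shown in capitals (bases 2 to 8 from the 5′ end). Mature miR-7a-5p is encoded in the Mir7-2 gene at chr7:78888295-78888317 (plus strand) and again, with identical letters, in Mir7-1 at chr13:58392841-58392863 (minus strand), and miR-7b-5p in Mir7b at chr17:56243017-56243040 (plus strand), all in RefSeq's GRCm38.p6. Counted from the 5′ end, the substitution from miR-7a-5p to miR-7b-5p is A10U, outside the seed, and miR-7b-5p has 1 more base at its 3′ end.
miR-7a-5p: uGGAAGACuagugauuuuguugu
miR-7b-5p: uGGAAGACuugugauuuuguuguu

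Of the 28 probe sets, 11 reached 4 on at least 1 array and 17 on none. Ldha, Acot7 and Oat had 1 probe set each and the other 7 genes several. Taking for each gene its brightest probe set, 8 genes had a mean of at least 4 in MIN6 (all but Pdgfra and Mgst1) and 8 in islets (all but Pdgfra and Cxcl12). Pdgfra, the receptor for platelet-derived growth factor A, lay between 2.17 and 2.18 in all 3 of its probe sets on all 6 arrays, at the lowest values of the table (2.17), so no comparison of it could be made.

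**Figure D1:**
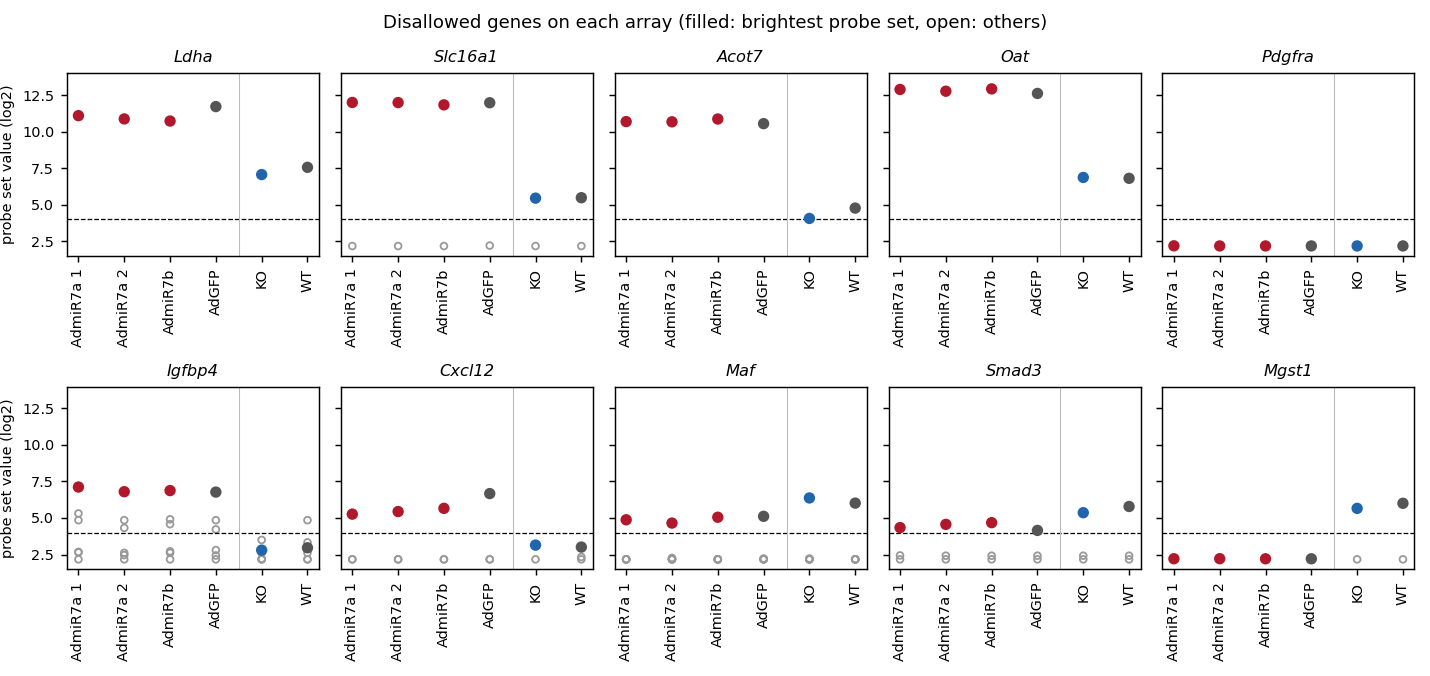
Log2 value of every probe set of the 10 disallowed genes on the 6 arrays, with miR-7 arrays in red, KO in blue and AdGFP and WT in grey. Filled points are each gene's brightest probe set, by its 6-array mean, and open points the others. The dashed line marks 4. Ldha, Slc16a1, Acot7 and Oat lie between 10.5 and 12.9 in MIN6 and between 4.06 and 7.56 in islets.

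Raising miR-7 in MIN6 cells asks which beta-cell transcripts respond to it. Ldha and Cxcl12 fell, and no other measured disallowed gene passed the test in either direction. In a limma fit of the 3 miR-7 arrays against AdGFP over 10368 genes, 2 of the 8 measured members fell and 0 rose at an adjusted p under 0.05. In the same fit 11.9% of all genes fell and 14.3% rose. The members' median difference was 0.06 (log2), against 0.06 over all genes tested.

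Among the metabolic members, Ldha stood at 11.10 and 10.87 in AdmiR7a cells and at 10.73 in AdmiR7b cells, against 11.72 in AdGFP cells. All 3 miR-7 arrays were below AdGFP. The gene fell by 0.82 ± 0.17 (log2, SE), a 1.76-fold reduction (limma adjusted p = 0.0379), while the AdmiR7a arrays differed from each other by 0.22. Slc16a1, the transporter that moves the product of Ldha, showed no called difference. It stood at 12.00 and 11.99 in AdmiR7a cells and 11.84 in AdmiR7b cells, against 11.98 in AdGFP cells, a pooled difference of -0.04 ± 0.10 (adjusted p = 0.804). Its 1446274_at probe set stayed at or below 2.20 on all arrays.

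Acot7, a cytosolic thioesterase that releases fatty acids from long-chain acyl-CoA, stood at 10.69 and 10.67 in AdmiR7a cells and 10.87 in AdmiR7b cells, against 10.55 in AdGFP cells (0.19 ± 0.11, adjusted p = 0.256). Oat, the mitochondrial ornithine aminotransferase that links arginine to proline and glutamate, stood at 12.89 and 12.77 with AdmiR7a and 12.93 with AdmiR7b, against 12.62 with AdGFP (0.25 ± 0.10, adjusted p = 0.135). For both genes the 3 miR-7 arrays lay above AdGFP, as for 46.5% of all genes, and the differences did not pass the test.

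Of the secreted members, Cxcl12, the chemokine that signals through the receptor Cxcr4, stood at 5.26 and 5.44 in AdmiR7a cells and at 5.66 in AdmiR7b cells, against 6.67 in AdGFP cells. The miR-7 arrays averaged 5.45 ± 0.20 (SD, n = 3) and all lay at least 1 log2 unit below AdGFP. The gene fell by 1.22 ± 0.18 (limma adjusted p = 0.0214), or 2.32-fold. This rests on the probe set 1448823_at, since the other two Cxcl12 probe sets were at 2.17 on all MIN6 arrays. Cxcl12 is also a stromal gene, and of 9 stellate and fibroblast markers 1, Col6a3, reached 4 in MIN6, at 9.39, 9.51 and 9.24 with AdmiR7a and AdmiR7b against 10.68 with AdGFP; Col1a1, Dcn and Lum were at most 2.18 on the MIN6 arrays.

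Igfbp4, which binds and restrains insulin-like growth factors, stood at 7.12 and 6.80 in AdmiR7a cells and 6.88 in AdmiR7b cells, against 6.77 in AdGFP cells (0.16 ± 0.15, adjusted p = 0.482). The AdmiR7a arrays differed from each other by 0.32, more than the pooled difference. The transcription factor gene Maf stood at 4.88 and 4.65 with AdmiR7a and 5.05 with AdmiR7b, against 5.11 with AdGFP (-0.25 ± 0.18, adjusted p = 0.342). Smad3, which carries signals of TGF-beta receptors to the nucleus, stood at 4.34 and 4.56 with AdmiR7a and 4.68 with AdmiR7b, against 4.15 with AdGFP (0.38 ± 0.16, adjusted p = 0.146). Maf and Smad3 were thus close to the background level on every MIN6 array. The microsomal glutathione transferase gene Mgst1 was at 2.21 on all 4 MIN6 arrays.

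**Figure D2:**
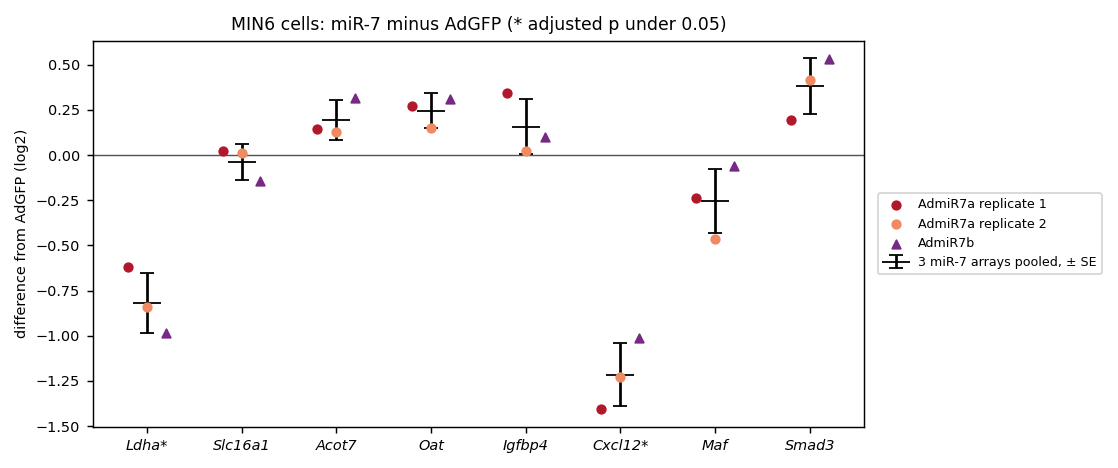
Difference from AdGFP (log2) of the 8 disallowed genes measured in MIN6, for each miR-7 array (points) and pooled with its SE (bars). Ldha (-0.82) and Cxcl12 (-1.22) carry an asterisk for an adjusted p under 0.05. The points of Oat, Acot7, Igfbp4 and Smad3 lie above 0 and those of Maf below it.

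Both calls depend on how many genes and arrays enter the fit. Leaving out AdmiR7a replicate 1, AdmiR7a replicate 2 or AdmiR7b left 0 genes called of 10368, and the adjusted p became 0.0665, 0.126 and 0.0918 for Ldha and 0.0683, 0.0931 and 0.0667 for Cxcl12; without the filter on dim genes it was 0.183 and 0.125, and with each probe set tested on its own Ldha had 0.0525. Every difference also rests on the single AdGFP array, on which 18S ribosomal RNA was 13.99, against 13.63, 13.63 and 13.89 on the AdmiR7a and AdmiR7b arrays; the part of that array in the result was not tested.

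For each vector on its own, Cxcl12 was 2.50-fold lower with AdmiR7a on average and 2.02-fold lower with AdmiR7b than with AdGFP. Ldha was 1.66-fold lower with AdmiR7a and 1.98-fold lower with AdmiR7b. Both vectors share the AdGFP array. In the limma fit with a mean per vector, AdmiR7a against AdGFP gave 0 called genes (percent called 0), but other settings gave between 350 called genes (dim genes kept in) and 2357 (quantile normalization repeated), with 2317 after centring, 1737 under a filter at 6 and 967 when a gene's probe sets were averaged. An unadjusted p under 0.05 was met by 3812 of 10368 genes and by 2 of the 8 measured members, no larger a share. These members were Cxcl12 (unadjusted p = 0.00318, adjusted p = 0.0667) and Ldha (unadjusted p = 0.0204, adjusted p = 0.0918). With AdmiR7b, which has 1 array and no replicate check, Cxcl12 was the member past a log2 size of 1 (-1.01) and Ldha lay just short of it (-0.99), where 4.26% of all genes were at least 1 lower. Between the vectors limma called 0 genes (percent called 0; 608 at an unadjusted p under 0.05). AdmiR7b minus AdmiR7a was 0.31 ± 0.12 for Cxcl12 and -0.26 ± 0.14 for Ldha (adjusted p = 0.737 and 0.757), which does not show that the vectors act alike.

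Deleting miR-7a2 in beta cells asks how the same genes stand in tissue with less of the microRNA. Of the 7 members at 4 or more on both arrays, all differed by under 1 log2 unit. Igfbp4 was lower, but under 4 in KO. With 1 array per group there is no replicate check and no test. Of 8 measured members, 6 were lower and 2 higher in KO, where 54.5% of all 10567 genes were lower in KO, and the members' median was -0.39 (log2) against -0.03 over all genes. As measured, 1 member was at least 1 log2 unit lower, against 1.29% of all genes, but its KO value was under 4. Among genes at 4 or more on both arrays, 0 of 7 members were that much lower, against 0.96% of 10418 genes.

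Ldha was at 7.06 in KO and 7.56 in WT islets (KO minus WT -0.50), and Acot7 at 4.06 in KO and 4.77 in WT islets (-0.71), close to background. Slc16a1 was 5.45 in KO and 5.48 in WT islets, and Oat 6.87 in KO and 6.81 in WT islets. Of the lactate pair, Ldha was thus lower in KO and Slc16a1 nearly level (-0.03), as in MIN6 cells with miR-7. Ldha stood below its control both where miR-7 was added and where miR-7a2 was deleted, and the islet difference has no replicate.

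That member was Igfbp4, at 3.50 in KO and 4.85 in WT islets in the probe set 1423757_x_at, which passed the filter through its WT value. Taking the dim KO value as 4, it was at least 1.80-fold lower in KO (-0.85 on the log2 scale), so a log2 size of 1 was not shown. That probe set read 4.85 on WT, AdGFP and both AdmiR7a arrays and 4.91 on AdmiR7b. Whether this repeated value is signal or a floor of the probe set was not tested, and the bound holds only if it is signal. In the probe set that was brightest in MIN6, 1437405_a_at, Igfbp4 was 2.80 in KO and 2.96 in WT islets, and in 1423756_s_at 2.21 in KO and 3.33 in WT islets, all under 4. The probe sets of Igfbp4 thus disagree in size, and the KO value is below 4 in each of them.

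Smad3 was 5.36 in KO and 5.79 in WT islets (-0.43), and Mgst1, which detoxifies lipid peroxides, 5.66 in KO and 6.01 in WT islets (-0.35). Maf was higher in KO, at 6.37 against 6.02 in WT islets (0.35). Smad3, Mgst1 and Maf each rest on 1 probe set, of 3, 2 and 6, and their other probe sets stayed under 4 on all 6 arrays. Cxcl12 was 3.14 in KO and 3.01 in WT islets, under 4 in both. Islets hold several cell types, and fewer cells of a type and less RNA per cell cannot be told apart in such arrays. The log2 of summed intensities, a measure weighted to the brightest markers, was 11.77 in KO and 11.99 in WT islets for 8 endothelial markers. For 9 stellate and fibroblast markers it was 11.97 in KO and 11.46 in WT islets. For 7 immune markers it was 10.71 in KO and 10.64 in WT islets. Spiked poly-A transcripts averaged 9.15 on KO and 10.41 on WT. Of the stellate markers Col6a3 was higher in KO (11.25 in KO, 10.03 in WT); Pdgfrb, Col3a1 and Sparc were lower in KO by 0.37, 0.16 and 0.02, and the median of the 4 measured markers was -0.09. The part of these measures in the differences was not tested.

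**Figure D3:**
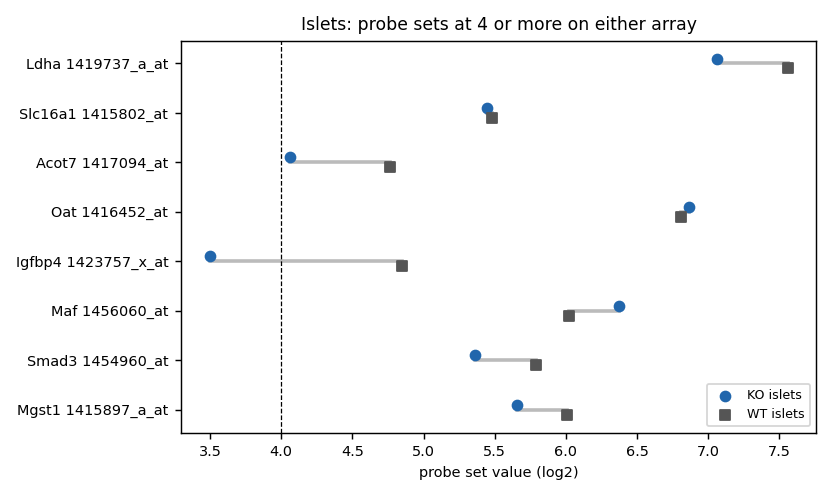
Log2 values in KO (circles) and WT (squares) islets of the 8 disallowed-gene probe sets that reached 4 on either array, joined by a grey line, with the dashed line at 4. Igfbp4 (3.50 in KO, 4.85 in WT) and Acot7 (4.06 in KO, 4.77 in WT) show the widest gaps, the KO value of Igfbp4 lying under the line, and Slc16a1 and Oat nearly coincide.

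The widest differences of the disallowed genes lay between the cell line and the tissue. AdGFP-infected MIN6 cells held far more of 4 members than WT islets: 90.6-fold more Slc16a1, 56.1-fold more Oat, 55.0-fold more Acot7 and 17.9-fold more Ldha. In these 4 genes both sides were above the background level of 4. Acot7 was close to it in WT islets (4.77), so its fold rests on a dim value. The groups are 1 array each, differ in tissue as well as infection, and were given no test.

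Slc16a1 lay between 11.84 and 12.00 on the 4 MIN6 arrays and at 5.45 and 5.48 in islets. Oat lay between 12.62 and 12.93 in MIN6, against 6.87 and 6.81 in islets. Acot7 lay between 10.55 and 10.87 in MIN6, against 4.06 and 4.77 in islets, and Ldha between 10.73 and 11.72, against 7.06 and 7.56. For Ldha the lowest MIN6 array was still 3.17 (log2) above the higher islet array, so the fall under miR-7 of 0.82 left MIN6 cells far above islets.

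Igfbp4 and Cxcl12 were also higher in AdGFP cells than in WT islets, by at least 6.84-fold and at least 6.37-fold, bounds set by taking the dim WT value as 4. Igfbp4 showed this in 1437405_a_at, while 1423757_x_at read 4.85 on both arrays. Both genes entered the comparison only through their MIN6 values. The transcription factors went the other way: Smad3 was 4.15 in AdGFP cells and 5.79 in WT islets (-1.64), and Maf 5.11 in AdGFP cells and 6.02 in WT islets (-0.90), with all MIN6 arrays below both islet arrays for these 2 genes, as for 36.5% of all genes. Mgst1 was at least 4.02-fold lower in AdGFP cells, at 2.21 against 6.01 in WT islets.

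Of the 6 members at 4 or more on both arrays, 4 were at least 1 log2 unit higher in AdGFP cells than in WT islets and 1 at least 1 lower, where 16.3% of 9740 such genes were that much higher and 16.8% that much lower. With the filter on the mean alone, which Igfbp4 and Cxcl12 passed through the group where they were high and Mgst1 did not pass, 6 of 8 members were at least 1 higher and 1 lower, where 19.4% of 10634 genes were higher and 18.6% lower. All 4 MIN6 arrays lay above both islet arrays for Ldha, Slc16a1, Acot7 and Oat, as for 39.7% of all genes. The median of all genes was 0.00 and the median size 0.71.

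Among 21 other genes described as disallowed, 7 were at 4 or more on both arrays. Hk1, the high-affinity hexokinase gene (3.39), and Arap2 (1.02) were at least 1 log2 unit higher in AdGFP cells, and Cat, which encodes the enzyme that breaks down hydrogen peroxide, at least 1 lower (-2.57). A further 4 were dim on 1 side and have only a bound. Parp3, of the poly(ADP-ribose) polymerase family, was at least 17.0-fold and Zyx at least 4.37-fold higher in AdGFP cells. Tgm2 was at least 18.7-fold and Zfp36l1 at least 14.2-fold lower. These 7 genes were named after their values were seen.

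MIN6 identity was checked against 6 beta-cell markers with a probe set. Ins2 (15.7 to 15.9), Iapp, Pdx1, Nkx6-1 and Ucn3 were high on all MIN6 arrays. Of these, Ucn3 fell by 1.15, Pdx1 fell by 0.99 and Nkx6-1 fell by 0.76 with miR-7 (limma adjusted p = 0.0115, 0.0137 and 0.0191). In the same fit Ins2 (0.06) and Iapp (-0.01) showed no called difference, and 11.9% of all genes fell. The calls of Ucn3, Pdx1 and Nkx6-1, like all others, were lost when any miR-7 array was left out. MIN6 cells also held some markers of other epithelial types. Gcg lay between 12.71 and 13.35, Sst between 9.28 and 9.64 and the ductal gene Krt7 between 11.57 and 11.84, each below its islet level. On each MIN6 array 3 of 4 alpha-cell, 4 of 5 delta-cell and PP-cell and 1 of 4 ductal markers reached 4. The ductal genes Krt19, Sox9 and Cftr did not, at 2.68, 2.23 and 2.17. Of the markers counted, Irx1 read 5.21 on AdGFP, both AdmiR7a arrays and both islet arrays. Pyy read 4.887 on each miR-7 array and 4.915 on AdGFP. Whether such repeated values are signal or a floor of the probe set was not tested. The alpha-cell marker Ttr was higher in AdGFP cells (16.14) than in WT islets (15.35). By contrast Slc2a2, the glucose transporter GLUT2, was at 2.52 on the miR-7 arrays and 3.84 on AdGFP, against 14.49 in KO and 14.15 in WT islets. None of 7 immune markers reached 4 in MIN6 and 6 did in each islet array. Endothelial markers at 4 or more numbered 1 of 8 on AdGFP and 8 of 8 in WT islets. Measures of array performance also differed between the systems: the hybridisation control BioB averaged 8.99 on AdGFP and 4.37 on WT, whereas BioC averaged 10.30 on both, and the actin control gave a 3′ value that exceeded its 5′ value by 1.48 on AdGFP and 2.77 on WT. The part of other cell types, of BioB and of RNA quality in the differences between MIN6 and islets was not tested.

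**Figure D4:**
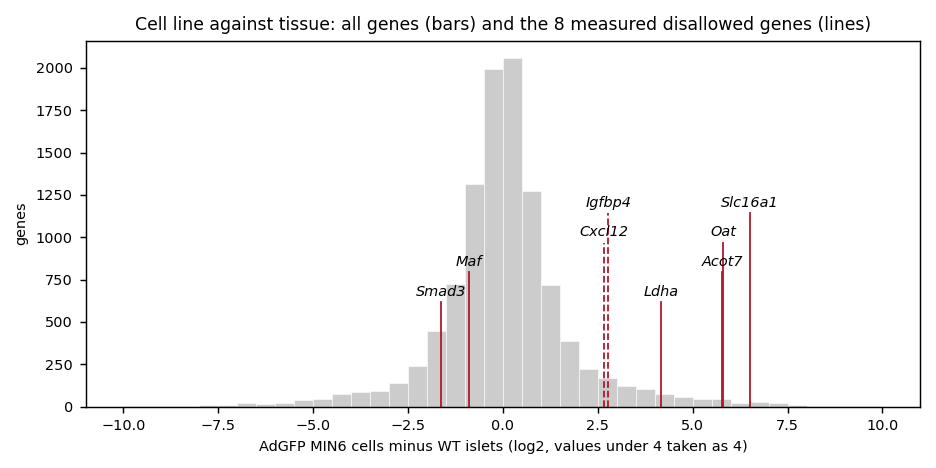
Number of genes by the difference between AdGFP-infected MIN6 cells and WT islets (log2, bars of 0.5), with values under 4 taken as 4 and the 8 measured disallowed genes as red lines, dashed where the difference is a bound. Slc16a1 (6.50), Oat (5.81), Acot7 (5.78), Ldha (4.16), Igfbp4 (at least 2.77) and Cxcl12 (at least 2.67) lie right of 0, and Maf (-0.90) and Smad3 (-1.64) left of it. The end bars also hold the genes beyond the axis.

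Among members with a promoter window available here, Ldha and Slc16a1 carried the palindrome CACGTG. It is the E-box bound by Myc, Max and related factors. Any part of this motif in the differences between MIN6 and islets was not tested. The Ldha and Slc16a1 windows are printed because they hold the motif. Each is a 300-base window around a gene start from RefSeq (GRCm38.p6), in lower case, with capitals wherever ACGTG occurs on either strand, which includes each CACGTG. The Ldha window at chr7:46845554-46845853 (plus strand) held 2 copies of CACGTG among 3 separate stretches in capitals, and the Slc16a1 window at chr3:104638414-104638713 (plus strand) 1 among 2. A second start of Ldha and the windows of Acot7, Pdgfra, Igfbp4, Cxcl12, Smad3 and Mgst1 held neither motif, and that of Oat held 1 ACGTG and 0 CACGTG. Of 32851 windows of this length, 7.15% held CACGTG and 19.6% ACGTG on either strand. A match describes letters and is no evidence of binding.
Ldha promoter: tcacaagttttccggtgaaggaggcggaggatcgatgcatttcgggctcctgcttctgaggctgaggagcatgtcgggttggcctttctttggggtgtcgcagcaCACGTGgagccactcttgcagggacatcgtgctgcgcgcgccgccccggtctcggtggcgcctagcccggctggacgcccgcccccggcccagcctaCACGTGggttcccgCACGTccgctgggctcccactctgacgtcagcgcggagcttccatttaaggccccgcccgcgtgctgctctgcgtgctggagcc
Slc16a1 promoter: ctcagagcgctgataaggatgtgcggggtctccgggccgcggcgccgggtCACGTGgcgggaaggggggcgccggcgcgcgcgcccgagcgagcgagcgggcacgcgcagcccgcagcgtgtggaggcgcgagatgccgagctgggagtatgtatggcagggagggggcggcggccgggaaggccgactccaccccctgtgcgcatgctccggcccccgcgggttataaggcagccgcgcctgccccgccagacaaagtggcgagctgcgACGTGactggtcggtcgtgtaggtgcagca

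The genes that work with each member were then set beside it in MIN6, where each list is read against the 14.3% of all genes that rose and the 11.9% that fell, and where 0 of the calls held when any miR-7 array was left out. Of 13 measured genes of lactate and pyruvate handling, 2 rose and 2 fell with miR-7, near those shares. The pyruvate dehydrogenase kinase gene Pdk3 fell by 1.07 ± 0.15 (limma adjusted p = 0.0213) and the pyruvate carboxylase gene Pcx fell by 0.37 (adjusted p = 0.037), whereas the D-lactate dehydrogenase gene Ldhd rose by 0.68 (adjusted p = 0.0447) and the aromatic amino acid transporter gene Slc16a10 rose by 0.48 (adjusted p = 0.0368). Ldhb, the heart-type partner subunit of Ldha, was at 0.13 ± 0.18 (adjusted p = 0.64), and Bsg, the chaperone of MCT1, at 0.04 ± 0.10 (adjusted p = 0.821). The list's median was 0.04, against 0.06 over all genes.

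Of 6 measured relatives of Acot7, 2 rose, Acot13 by 0.58 and Acot9 by 0.50 (adjusted p = 0.0473 and 0.0246), with a median of 0.16. In islets, Acot6 was the relative past a log2 size of 1, at 5.68 in KO and 4.48 in WT (1.21). Around Oat, 2 of 7 genes fell: Slc25a15, which carries ornithine into mitochondria, fell by 0.99 ± 0.13 (adjusted p = 0.0182), and the spermidine synthase gene Srm fell by 0.96 ± 0.09 (adjusted p = 0.0132). The ornithine decarboxylase gene Odc1 was at 0.03 (adjusted p = 0.914), and the list's median was 0.03.

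Around the growth factor members, Pdgfrl, a receptor-like gene, rose by 1.25 ± 0.16 (adjusted p = 0.0179) among 3 measured genes of the PDGF family (median 1.04). Of 5 genes of the insulin-like growth factor system, the receptor gene Igf1r fell by 1.34 ± 0.13 and Pappa2, a protease that cleaves binding proteins of this family, fell by 1.29 ± 0.10 (adjusted p = 0.0134 and 0.0119), with a median of -0.30. Igfbp3 and Igfbp5, near background in AdGFP cells (2.19 and 2.17), were at 11.34 and 10.53 in WT islets, the opposite of Igfbp4. Cxcr4, the receptor of Cxcl12, was at 2.85 in AdGFP cells and at 6.95 in KO and 7.68 in WT islets, so MIN6 cells held the chemokine transcript with its receptor near background. Of the 3 genes of this axis 1 was measured in MIN6, Dpp4, and 0 passed (-0.11, adjusted p = 0.383).

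In the Maf family Mafg, a small Maf protein gene, fell by 0.77 ± 0.16 (adjusted p = 0.0395) among 3 measured genes, with a median of -0.77. Around Smad3, 5 of 14 genes of TGF-beta signalling rose and 0 fell, against 14.3% and 11.9% of all genes, with a median of 0.15 against 0.06. They included both inhibitory Smad genes, Smad6 (rose by 1.41 ± 0.09, adjusted p = 0.0111) and Smad7 (rose by 0.53, adjusted p = 0.0201), as well as the TGF-beta effector Smad2 (rose by 0.49, adjusted p = 0.034) and the corepressor gene Ski (rose by 0.33, adjusted p = 0.0397). Of the 2 measured relatives of Mgst1, 0 passed. Of 9 measured other disallowed genes, the palmitoyltransferase gene Zdhhc9 fell by 1.61 ± 0.14 (adjusted p = 0.0125) and Rarres2, the chemerin gene, fell by 0.68 (adjusted p = 0.0281), while the mitochondrial protein gene C1qbp rose by 0.59 (adjusted p = 0.0304), with a median of -0.28.

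**Figure D5:**
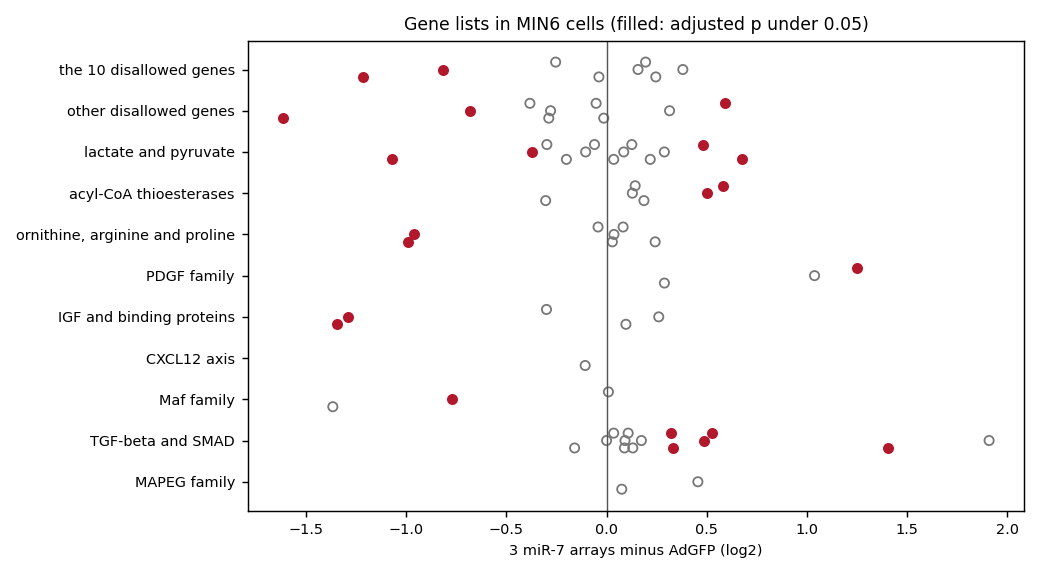
Difference of the 3 miR-7 arrays from AdGFP (log2) for each measured gene of the 10 disallowed genes and of the 10 lists set beside them. Filled points passed an adjusted p of 0.05 and open points did not; vertical spread within a list has no meaning. The TGF-beta and SMAD list has 5 filled points right of 0 and none left of it.

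Across the 3 miR-7 differences and KO minus WT, the genes closest to Ldha were Sdk2, Gimap6 and Asb1, with root mean square distances of 0.104, 0.105 and 0.105 (log2) over 4 values and among 9780 genes measured in both systems. Sdk2 was lower by 0.66, 0.80 and 0.80 on the miR-7 arrays than on AdGFP and by 0.42 in KO than in WT islets. Cxcl12 was not measured in islets and was given no such neighbours.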

How the data were processed

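RNA from 4 MIN6 cultures and 2 islet preparations had been hybridised to Affymetrix arrays. Per the submitters' processing notes the authors used affy and GCRMA, whose versions are not given in the sources used here. The deposited values were read as log2 intensities from that method's usual output and their range (2.17 to 16.42); scale, joint normalization of all 6 arrays and any later centring are not stated, and scanner files were not used. GCRMA sets many dim probe sets to a shared floor, so differences near it are compressed; 25 genes tested in MIN6 read the same on all 4 arrays (within 0.001).

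Of 45101 probe sets, 34958 carried 1 gene symbol, 932 several and 9211 none in GEO's platform annotation; 34754 were matched by Entrez identifier to RefSeq (GRCm38.p6), used for names. A gene took its brightest probe set on average, chosen separately in MIN6, in islets and over all 6 arrays, and genes with a mean under 4 were left out. limma 3.58.1 (R 4.3.3) compared the 3 miR-7 arrays with AdGFP (2-sided, Benjamini-Hochberg over all genes, adjusted p under 0.05), and in a second fit each vector. "Rose" and "fell" refer to the pooled fit. It takes the spread of the miR-7 arrays for that of the single AdGFP array. The AdmiR7a arrays are described as duplicate infections, but whether these were independent experiments is not stated, so the spread may be technical. In simulated data the pooled fit recovered 56% of 50 changes of 0.58 (log2) and 94% of 50 changes of 1. It made 15 false calls in 10368 genes. The simulation gave AdGFP the same spread as the miR-7 arrays, so it cannot test that assumption. Comparisons of 1 array per group have no test and were counted at a log2 size of 1; where one side was under 4, it was taken as 4 and the fold given as a bound. The number of arrays limits the precision.

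Members and gene lists were chosen with earlier results of these data known. Named genes were all members, up to 4 called genes per list by size, list genes past 1 in KO minus WT, and the 3 genes closest to each called member; the uncalled list genes Ldhb, Bsg, Odc1, Igfbp3, Igfbp5, Cxcr4 and Dpp4, the marker genes and those marked in the text were named outside this rule, after their values were seen. Alternatives changed the filter, the probe set rule, the normalization, the eBayes prior and the arrays included. List genes without a named probe set, such as Mafa, were not analysed here.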

Additional observations from a re-analysis of the deposited data

How the results depend on the processing

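The count of 2 disallowed genes called in the pooled fit became 0 with no filter on dim probe sets, 1 with a filter at 6 (Ldha; Cxcl12 was filtered out), 1 with the mean of a gene's probe sets (Ldha; Cxcl12 was filtered out), 1 with every probe set on its own (Cxcl12) and 0 when any miR-7 array was left out; it stayed at 2 after renewed quantile normalization, centring and eBayes with a trend. The count of all genes called, 2716, became 981 with no filter and 0 when any miR-7 array was left out, with between 3766 and 3889 at an unadjusted p under 0.05. The AdmiR7a count of 0 became 350 with no filter, 1737 with a filter at 6, 967 with averaged probe sets, 2357 with quantile normalization and 2317 with centring. The direction of Ldha and Cxcl12 was the same in all alternatives in which they were measured. Their differences lay between -0.92 and -0.73 and between -1.32 and -1.12 when an array was left out. All alternatives kept the single AdGFP array, and those that changed only the filter left both differences unchanged. The constant direction is therefore no independent check. Slc16a1 lay between -0.067 and 0.015, changing sign without AdmiR7b. With no filter 43.5% of calls rose, in place of 54.5%. Disallowed genes past a log2 size of 1 with AdmiR7b, 1 in the main setting, numbered 0 with a filter at 6 and with averaged probe sets and 2 with centring; in KO islets, 1 became 0 with a filter at 6, with averaged probe sets and, in an alternative chosen after seeing the data, among genes at 4 or more on both arrays; between AdGFP and WT, 7 became 4, 4 and 5. In these cases fewer members were measured under the filter at 6 and with averaged probe sets. The 39 alternative values of KO minus WT moved by less than 0.194, the SD between the AdmiR7a arrays over genes. Alternatives that changed only the filter kept the same probe set, so their values could not move. Other probe sets of Igfbp4, at -1.12 and -0.16 in place of -1.35, were not among the 39. Fits of single vectors without an AdmiR7a replicate have no residual degrees of freedom and were not run. No paired analysis was possible because only AdmiR7a has replicate numbers.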
